A study of Rhizophagus irregularis DAOM 181602=DAOM 197198 with 30 samples.

Results

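Germinating spores of Rhizophagus irregularis that had been kept with GR24 for 2 d were compared with spores kept with acetone, the solvent, for the same time. The comparison takes in every gene model that the deposited table for this time point lists, 30282 in all, in 5 libraries (2 GR24, 3 acetone) of the 20 time-course libraries used here and the 30 samples of the series. All libraries are of strain DAOM197198. Cultures of 80000 spores germinated for 2 d in 40 ml of liquid M medium in the dark with 2% CO2 and then received GR24 at 1e-06 M or acetone diluted 1 in 1000. Spores collected after 1 h, 7 d and 14 d of the same treatments are used below only to show how the 2 d response differs. The GR24 libraries are replicates 1 and 3. Replicate 2 was not analysed here. The labels do not say whether replicates were separate cultures, so p-values measure the spread between these libraries, which may be technical. Whole spore cultures were sequenced, so fewer hyphae or nuclei of a kind and less RNA in each cannot be told apart.

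Rhizophagus irregularis is an arbuscular mycorrhizal fungus: it colonises plant roots, passes phosphate and nitrogen to the plant and depends on it for sugars and lipids. Before contact, roots release strigolactones, and spores that meet them respond with more active mitochondria, branching hyphae and secretion of chitin-derived signals. GR24 is a synthetic strigolactone used in place of the natural mixture. Cytochrome P450 enzymes oxidise small hydrophobic molecules, glutathione S-transferases conjugate them and ABC and major facilitator transporters can export them.

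Sequencing gave 6984101 and 10816288 gene reads in the GR24 libraries, against 6359363, 10259882 and 9222941 in the acetone libraries. Of the 30282 models, 9597 had no read in these 5 libraries and 14704 had enough reads to be tested. Each gene model is called here by the assembly name and protein number within its deposited identifier (Gloin1_ and the number) and by its deposited description, which 14088 models have. Levels are given as CPM, each model's count scaled to library size with TMM factors, for GR24 replicates 1 and 3 and then acetone replicates 1, 2 and 3. The first principal component of the 5 libraries held 38.7% of the variance and separated the groups.

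By edgeR's quasi-likelihood test with Benjamini-Hochberg adjustment at 0.05, 316 models (2.15% of those tested) changed after 2 d of GR24, 150 of them higher (1.02%) and 166 lower (1.13%). The rises were larger than the falls. Among the higher models 33 changed at least 4-fold, 34 between 2- and 4-fold, 28 between 1.5- and 2-fold and 55 less. Among the lower models the same bins held 3, 17, 63 and 83. Together 87 models (0.592%) changed at least 2-fold. The higher models took 1.35% and 1.40% of the gene reads in the GR24 libraries, against 0.923%, 0.872% and 0.909% in the acetone libraries. For the lower models the shares were 1.05% and 0.972% with GR24, against 1.42%, 1.53% and 1.49% with acetone. Both sets were picked by their counts in these same libraries, so the direction of these shares follows from the choice. They show only how much of the reads the called models held. The median log2 fold change over all tested models was -0.00050. With library totals alone in place of TMM, 115 models were higher and 201 lower, so 36.4% of the calls were upward, against 47.5% with TMM.

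The number of calls rested on single libraries. It was 46 (0.308% of those tested; 34 higher, 12 lower) when GR24 replicate 3 was left out and 70 (0.489%; 52 and 18) when acetone replicate 3 was. Leaving out GR24 replicate 1 gave 219 (1.44%), leaving out acetone replicate 1 gave 428 (2.94%), and the same for acetone replicate 2 gave 457 (3.21%). The models at least 2-fold changed numbered 29 and 43 in the first pair of fits and 139 without acetone replicate 1. Where 1 GR24 library is left, it is assumed to vary like the acetone group. In all 5 of these fits 36 models passed (0.245% of those tested), 29 higher (0.197%) and 7 lower (0.0476%). A change of at least 2-fold was seen in 25 of the 36. These 36 models are called stable below and are described first within most groups. Stable rises named only here are Gloin1_12992, with an ATPase-like domain (log2 fold change 1.25 ± 0.157, SE), and Gloin1_336320, with a phosphopantetheine attachment site (0.75 ± 0.098). Another is Gloin1_349305 (1.54 ± 0.185), whose ortholog group names a transcription regulator although its best match is a mucus-binding protein. The CPM values of both groups did not overlap in 33.8% of all tested models, so a lack of overlap in the models named below is a description and adds nothing to their test.

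**Figure D1:**
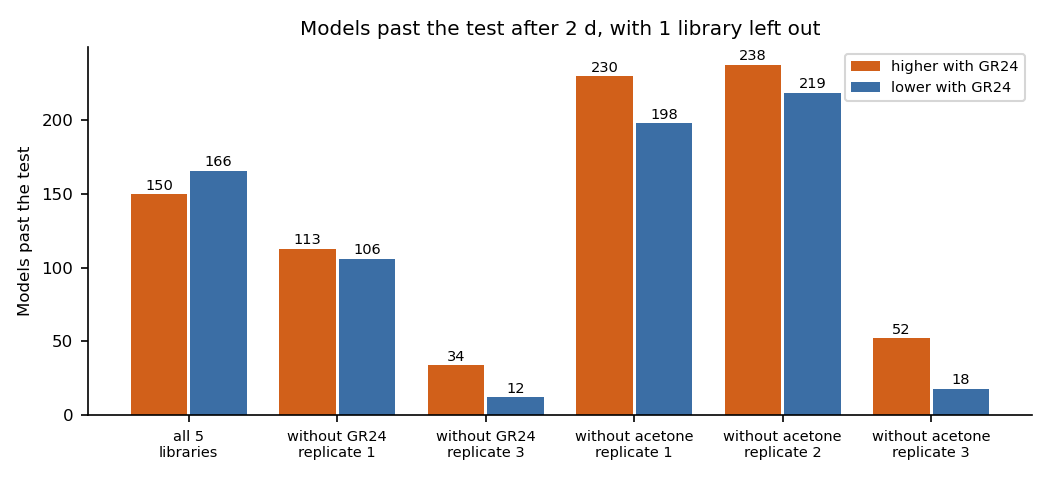
The bars give the number of gene models past the test after 2 d, higher with GR24 or lower with GR24, with all 5 libraries and with each library left out (y axis, models). Both bars are shortest without GR24 replicate 3 (34 and 12) and without acetone replicate 3 (52 and 18).

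Cell wall enzymes held the largest relative rise with a description. Chitin synthase joins N-acetylglucosamine into chitin, the main wall polymer of fungi. The chitin synthase model Gloin1_67965, which also carries a cytochrome b5 domain, had 21.4 and 25.7 CPM in the GR24 libraries, against 0.627, 0.191 and 0.215 CPM in the acetone libraries. The groups were far apart, and the acetone values rest on few reads (4, 2 and 2). Its log2 fold change was 6.20 ± 0.325 (SE, adjusted p = 3.85e-09) and lay between 5.89 and 6.78 with 1 library left out. Per length it remained a weakly expressed gene, with a mean of 9.26 RPKM with GR24, against 0.139 RPKM with acetone. A second chitin synthase model with the same domains, Gloin1_95179, had 72.7 and 84.2 CPM with GR24, against 63.5, 53.6 and 58.8 CPM with acetone (log2 fold change 0.43 ± 0.107, adjusted p = 0.049), and passed in 1 of the 5 fits that leave out a library.

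One enzyme that makes the substrate of chitin rose too. Glucosamine-phosphate N-acetyltransferase (Gloin1_27492), a step of UDP-N-acetylglucosamine synthesis, stood at 38.7 and 41.3 CPM with GR24, against 14.9, 14.2 and 16.8 CPM with acetone. The groups did not overlap, and the model was stable (log2 fold change 1.39 ± 0.144, adjusted p = 3.64e-05). In the list of 95 tested chitin and glucan enzymes 3 rose and 5 fell, with a median log2 fold change of 0.01. This is 8.42% changed, against 2.15% of all tested models. The third rise was the 1,3-beta-glucan synthase Gloin1_3474, which makes the other main wall polymer, at 220 and 236 CPM with GR24, against 174, 145 and 169 CPM with acetone (0.49 ± 0.086 on the log2 scale). That call ended when GR24 replicate 3 (0.43) or acetone replicate 3 (0.52) was left out.

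The 5 lower members of the wall list are annotated as enzymes that break down or modify chitin. However, Gloin1_136770 and Gloin1_10653 have no domain annotation and Gloin1_334327 carries RING and formin domains. For Gloin1_85061 only the ortholog group names a predicted chitinase, while its domain annotation and best match name chitin binding. Chitinase Gloin1_136770 had 46.6 and 48.2 CPM with GR24, against 69.0, 67.4 and 74.7 CPM with acetone (log2 fold change -0.57 ± 0.104). The chitinase models Gloin1_334327, Gloin1_10653 and Gloin1_85061 changed by -0.66 ± 0.143, -0.60 ± 0.136 and -0.65 ± 0.138 on the log2 scale, and the chitin deacetylase type model Gloin1_25335 by -0.59 ± 0.101. None of the 5 passed in all fits with 1 library left out, and without acetone replicate 3 the list held 1 higher and 0 lower member. In that fit Gloin1_136770 was at -0.52, Gloin1_334327 at -0.70 and Gloin1_25335 at -0.54.

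Type 11 methyltransferases, which use S-adenosylmethionine to methylate small molecules, gave a compact set of rises. Of 71 tested S-adenosylmethionine methyltransferases 6 rose by edgeR (4 by DESeq2, 5 by limma-voom) and 0 fell by any of these (7 lower at an unadjusted p under 0.05), and 4 of the rises were stable. By edgeR 8.45% of the list changed, against 2.15% of all tested models. The list's median log2 fold change was -0.02, so most members did not share the change. Model Gloin1_20845 had 42.5 and 47.6 CPM with GR24, against 3.61, 3.16 and 4.94 CPM with acetone (log2 fold change 3.52 ± 0.189, adjusted p = 4.40e-09). Levels of Gloin1_25998 were 11.5 and 11.0 CPM with GR24, against 1.88, 1.24 and 0.645 CPM with acetone (3.21 ± 0.322). For Gloin1_79000 they were 11.8 and 14.6 CPM with GR24, against 1.88, 1.82 and 3.22 CPM with acetone (2.50 ± 0.271). In each of these 3 the lower GR24 library was at least 3 times the highest acetone library. The fourth, Gloin1_289675, was the most abundant and changed least, with 301 and 296 CPM in the GR24 libraries, against 184, 158 and 172 CPM in the acetone libraries (0.80 ± 0.079). The remaining higher members were Gloin1_94170, at 1.58 and 1.15 CPM with GR24 and 0, 0 and 0.107 CPM with acetone, and the sterol 24-C-methyltransferase type model Gloin1_284319 (0.31 ± 0.077). Each passed in 1 of the 5 fits with a library left out. The list rests on domain and ortholog annotation. Of 7 tested models outside it whose best match is a type 11 methyltransferase, picked out after their values were seen, 3 rose and 0 fell by edgeR: Gloin1_9843 (2.99 ± 0.434), Gloin1_96092 (3.57 ± 0.579) and Gloin1_350300 (1.33 ± 0.257). None of the 3 was stable.

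**Figure D2:**
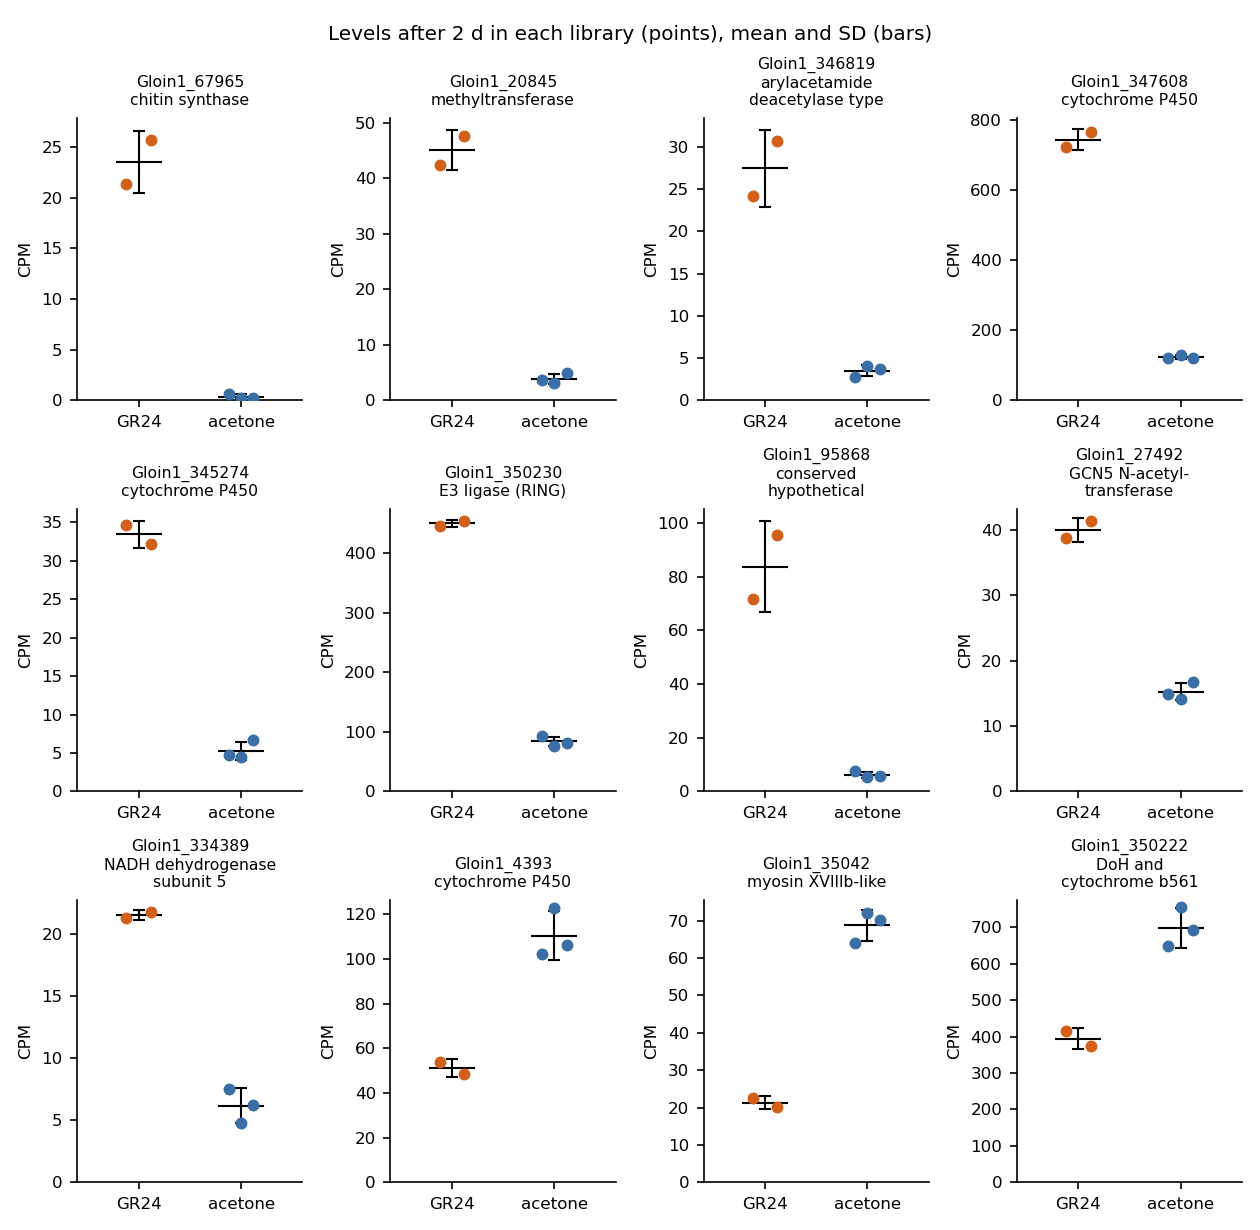
Each panel shows 1 gene model after 2 d, with a point for each library (GR24 replicates 1 and 3 on the left, acetone replicates 1, 2 and 3 on the right) and bars for the mean and SD; the y axis is the TMM-scaled level in CPM and starts at 0. In all 12 panels the GR24 points lie wholly above or wholly below the acetone points: Gloin1_67965 is at 21.4 and 25.7 CPM with GR24, against at most 0.627 CPM with acetone, and Gloin1_35042 at 22.5 and 20.1 CPM, against at least 64.0 CPM.

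Cytochrome P450 models moved both ways. Of 132 tested members 9 rose and 7 fell, so 12.1% changed, against 2.15% of all tested models, while the list's median log2 fold change was -0.01. Without GR24 replicate 3 the list held 4 higher and 2 lower members, and without acetone replicate 3 it held 6 and 4. The CYP2-type model Gloin1_347608 was the strongest of them at the transcript level, with 723 and 766 CPM in the GR24 libraries, against 121, 129 and 122 CPM in the acetone libraries. The groups were far apart and each was narrow, and the log2 fold change of 2.58 ± 0.076 had an adjusted p of 1.92e-12. Per length it averaged 447 RPKM with GR24, against 76.8 RPKM with acetone.

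Other P450 models, with lower levels, also rose. Model Gloin1_345274 stood at 34.7 and 32.2 CPM with GR24, against 4.70, 4.49 and 6.66 CPM with acetone (log2 fold change 2.65 ± 0.189, adjusted p = 2.69e-07). For Gloin1_345126 the values were 44.2 and 43.3 CPM with GR24, against 11.0, 13.4 and 16.2 CPM with acetone (1.68 ± 0.159). The stable model Gloin1_54640 had 19.7 and 16.4 CPM with GR24, against 6.90, 5.83 and 6.23 CPM with acetone (1.51 ± 0.193). These 4 P450 models were the stable rises of the list. The other higher members were Gloin1_17085, Gloin1_57972, Gloin1_10023, Gloin1_345415 and Gloin1_19698, and Gloin1_10023 had 2.58 and 1.82 CPM with GR24, against 0.314, 0.287 and 0.107 CPM with acetone. None of these 5 was stable.

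P450 model Gloin1_4393 fell to 53.9 and 48.3 CPM with GR24, against 102, 123 and 106 CPM with acetone. Both GR24 libraries were below all acetone libraries, and the log2 fold change was -1.12 ± 0.105 (adjusted p = 1.36e-05). Another lower P450, Gloin1_59731, was at 18.6 and 19.9 CPM with GR24, against 36.2, 35.4 and 38.7 CPM with acetone (-0.93 ± 0.140, adjusted p = 0.00179). These 2 were stable. The CYP2-type model Gloin1_3480 changed by -0.92 ± 0.134 and Gloin1_23642 by -0.53 ± 0.081, each past the test in 4 of the 5 fits with a library left out. The remaining lower members, Gloin1_130232, Gloin1_29813 and Gloin1_61719, passed in at most 2. For the P450 model Gloin1_4393, 99.7% of its reads matched no other model.

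Conjugating enzymes, which act on small molecules beside P450s, were next. Of 26 tested glutathione S-transferases 2 rose and 1 fell (11.5% changed, against 2.15% of all tested models). The abundant model Gloin1_338374 had 399 and 445 CPM with GR24, against 292, 261 and 309 CPM with acetone (log2 fold change 0.56 ± 0.085), a call that ended without GR24 replicate 3 (0.47). The lower one, Gloin1_334239, was at 14.5 and 11.9 CPM with GR24, against 28.2, 21.2 and 24.2 CPM with acetone (-0.90 ± 0.178); it no longer passed in the fits lacking GR24 replicate 3 (-0.75) or acetone replicate 3 (-0.90). The UDP-glycosyltransferase Gloin1_6264, of a family that joins sugars to small molecules, was stable at 64.6 and 60.7 CPM with GR24, against 38.7, 36.2 and 40.1 CPM with acetone (0.71 ± 0.111, adjusted p = 0.00247). Of 16 tested models with this annotation, picked out after their values were seen, 3 rose and 1 fell. Model Gloin1_552 of this family changed by -0.65 ± 0.109 (adjusted p = 0.00404).

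Some transporter models rose. Of 48 tested ABC transporters, which pump substrates with ATP, 5 rose and 0 fell by edgeR, DESeq2 and limma-voom (2 lower at an unadjusted p under 0.05), with a median log2 fold change of 0.07. By edgeR 10.4% of the list changed, against 2.15% of all tested models. In the fit of all 20 time-course libraries 6 were higher and 1 was lower. Without GR24 replicate 3 the count was 0 higher (3 without acetone replicate 3). The multidrug exporter Gloin1_6100 was at 7.75 and 8.05 CPM with GR24, against 2.67, 1.24 and 1.83 CPM with acetone (2.10 ± 0.316). The abundant breast cancer resistance protein type model Gloin1_290312 was at 287 and 302 CPM with GR24, against 218, 193 and 219 CPM with acetone (0.49 ± 0.079). The multidrug resistance-associated model Gloin1_92632 followed with 96.5 and 105 CPM with GR24, against 65.2, 49.8 and 66.2 CPM with acetone (0.75 ± 0.118). In all 3 the groups did not overlap, and each call ended only without GR24 replicate 3, where the log2 fold changes were 2.06, 0.45 and 0.68. The ABC count includes the glucan synthase Gloin1_3474, whose description names both.

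Of 65 tested major facilitator transporters, which move sugars, drugs and other solutes down or along ion gradients, 6 rose and 0 fell by edgeR, DESeq2 and limma-voom (6 lower at an unadjusted p under 0.05). By edgeR 9.23% of the list changed, against 2.15% of all tested models. Without acetone replicate 1, and with no filter on low counts, 1 was lower. The stable member was the drug resistance type model Gloin1_193343, with 102 and 82.4 CPM in the GR24 libraries, against 60.1, 49.7 and 53.6 CPM in the acetone libraries (log2 fold change 0.76 ± 0.113, adjusted p = 0.00179). Its lower GR24 library was above the highest acetone library. Model Gloin1_3690, another member, had 38.9 and 45.3 CPM with GR24, against 26.0, 22.3 and 22.7 CPM with acetone (0.84 ± 0.139), but did not pass without GR24 replicate 3 (0.72) or acetone replicate 3 (0.81). In each of those fits 1 member of the list passed. A K+/H+ antiporter model, Gloin1_349622, outside both lists, was at 77.5 and 91.6 CPM with GR24, against 49.6, 34.1 and 44.2 CPM with acetone (1.00 ± 0.140) and passed in 4 of the 5 fits.

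Hydrolases and esterases gave 2 stable rises. Model Gloin1_346819, an alpha/beta hydrolase described as arylacetamide deacetylase, an esterase that removes acetyl groups, had 24.2 and 30.7 CPM with GR24, against 2.82, 4.02 and 3.76 CPM with acetone. Its GR24 and acetone libraries were widely separated (log2 fold change 2.93 ± 0.204, adjusted p = 2.16e-07). The arylesterase Gloin1_10178 was at 37.7 and 41.7 CPM with GR24, against 14.0, 16.4 and 17.3 CPM with acetone (1.31 ± 0.147). Of 102 tested alpha/beta hydrolases and lipases 3 rose and 3 fell (5.88% changed, against 2.15% of all tested models), with a median of -0.02. Of 90 tested short-chain dehydrogenases, aldo/keto reductases and aromatic-ring hydroxylases 2 rose and 4 fell (6.67% changed), and none of these was stable. Among them the kynurenine 3-monooxygenase type model Gloin1_7932 had 13.5 and 10.3 CPM with GR24, against 22.1, 21.4 and 27.7 CPM with acetone (-1.02 ± 0.187); it did not pass without GR24 replicate 3 (-0.82) or acetone replicate 3 (-0.89).

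**Figure D3:**
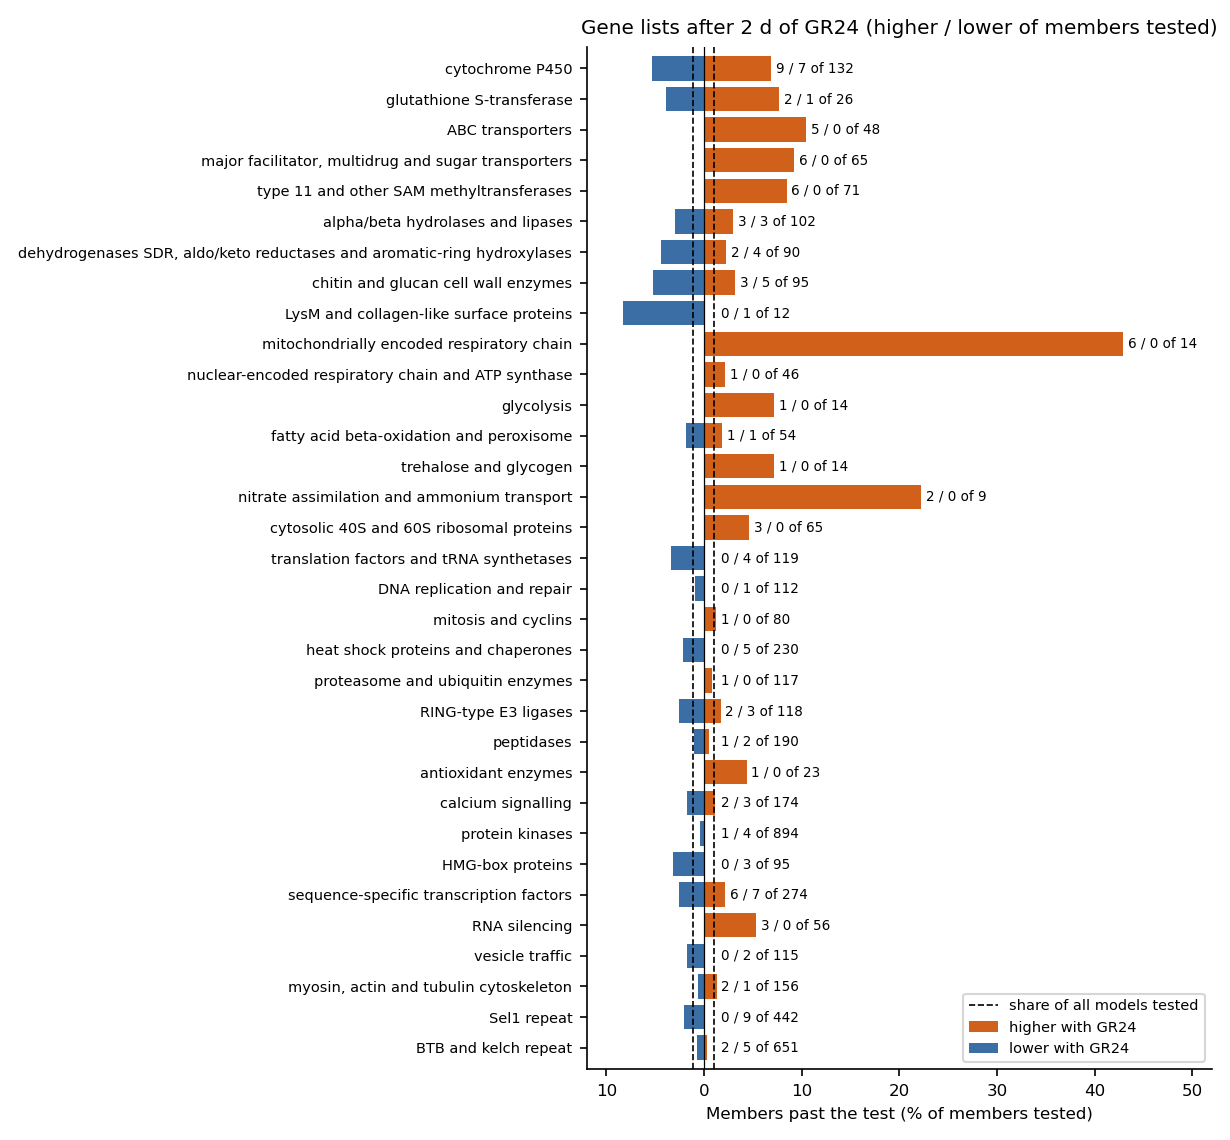
For each gene list with at least 1 member past the test, bars give the percent of its tested members that were higher with GR24 (to the right of 0) or lower (to the left), and the text beside each bar the counts; dashed lines mark the shares over all tested models, 1.02% higher and 1.13% lower. The mitochondrially encoded respiratory chain (6 higher of 14) extends farthest, P450s lie on both sides (9 higher and 7 lower of 132), and the transporter and methyltransferase lists have rises only.

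Genes of protein turnover and of regulation were led by 1 model. The RING-type model Gloin1_350230, annotated as an E3 ligase, the enzyme class that attaches ubiquitin to target proteins, had 446 and 454 CPM with GR24, against 92.8, 77.1 and 82.1 CPM with acetone. The 2 GR24 libraries lay close together and far above the acetone group (log2 fold change 2.43 ± 0.083, adjusted p = 1.07e-11). Of 118 tested RING-type models 2 rose and 3 fell (4.24% changed, against 2.15% of all tested models). The other rise, Gloin1_346472, at 279 and 393 CPM with GR24, against 210, 184 and 200 CPM with acetone (0.77 ± 0.132), ended without acetone replicate 3 (0.77). Model Gloin1_22168 was stable at 157 and 174 CPM with GR24, against 102, 106 and 114 CPM with acetone (0.63 ± 0.084, adjusted p = 0.000652). Its ortholog group names a fusion of ubiquitin with ribosomal protein S27a, while its domain annotation names ubiquitin only.

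Models annotated as transcription regulators were divided. Of 274 tested members 6 rose and 7 fell (4.74% changed, against 2.15% of all tested models), with 1 stable member on each side. The C2HC zinc finger model Gloin1_347353 had 51.1 and 46.0 CPM with GR24, against 77.5, 88.7 and 83.8 CPM with acetone (log2 fold change -0.79 ± 0.105, adjusted p = 0.000652). The other stable member, Gloin1_346962, was at 318 and 329 CPM with GR24, against 238, 211 and 219 CPM with acetone (0.54 ± 0.076); its descriptions name a fungal transcription factor domain and RNA-binding Pumilio repeats. The groups did not overlap in either. The NmrA-type model Gloin1_27959, of a family that in Aspergillus holds back a nitrogen regulator, was outside the list and stable at 468 and 466 CPM with GR24, against 316, 335 and 295 CPM with acetone (0.57 ± 0.077). Of 894 tested protein kinases 1 rose and 4 fell, of 14 G protein-coupled receptors 0 changed by edgeR, DESeq2 or limma-voom (1 higher at an unadjusted p under 0.05), and of 174 calcium signalling models 2 rose and 3 fell. One of those 2 was the P450 Gloin1_345274, whose description also names an EF-hand. The changed share was 0.559% of the kinases and 2.87% of the calcium signalling models, against 2.15% of all tested models.

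Several stable rises have no informative description. The conserved hypothetical protein Gloin1_95868 had 71.7 and 95.6 CPM with GR24, against 7.53, 5.26 and 5.80 CPM with acetone (log2 fold change 3.79 ± 0.170, adjusted p = 1.33e-09). The short model Gloin1_349160 was at 154 and 161 CPM with GR24, against 24.6, 24.7 and 23.3 CPM with acetone (2.70 ± 0.095, adjusted p = 1.07e-11), with nearly equal values within each group. Model Gloin1_7338 had 21 and 30 reads in the GR24 libraries and 0 reads in all 3 acetone libraries. It was 25.5-fold higher if 3 reads are allowed over the acetone group. Other stable rises without a known role were Gloin1_346546 (2.10 ± 0.214), Gloin1_83621 (1.92 ± 0.228) and Gloin1_203882 (1.63 ± 0.258). The aminotransferase-type model Gloin1_3482, which has too few reads at 2 d to be tested, had 4 and 3 reads with GR24 and 0 with acetone. By the same floor it was 3.50-fold higher. The floor allows for counting error in the acetone reads only, so with so few GR24 reads this value is not a lower limit.

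Among the lower models the smallest p belonged to a short model whose best protein match is an unconventional myosin, a motor protein of the actin cytoskeleton. Its ID is Gloin1_35042, and it had 22.5 and 20.1 CPM with GR24, against 64.0, 72.0 and 70.2 CPM with acetone, with no overlap (log2 fold change -1.70 ± 0.124, adjusted p = 3.53e-07). Larger falls, down to -3.20 on the log2 scale, were in weakly expressed models that were not stable. Model Gloin1_341503, without a description, was at 6.31 and 5.56 CPM with GR24, against 14.6, 15.8 and 18.2 CPM with acetone (-1.46 ± 0.204). The abundant model Gloin1_350222, whose ortholog group names DoH and cytochrome b561 domains of membrane electron carriers, although its domain annotation names histone H5 and its best match is a pseudouridine synthase, was at 414 and 375 CPM with GR24, against 647, 756 and 692 CPM with acetone (-0.82 ± 0.088, adjusted p = 4.66e-05). Per length Gloin1_350222 averaged 526 RPKM with GR24, against 959 RPKM with acetone, so among the models printed here with RPKM values it was the highest in both groups. The kelch-repeat model Gloin1_15897, of which 95.9% of reads matched no other model, was at 121 and 119 CPM with GR24, against 169, 173 and 195 CPM with acetone (-0.58 ± 0.084). The groups of these 4 models did not overlap.

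Chaperones and Sel1-repeat proteins changed by edgeR at about the rate of all tested models in either direction (2.15%). All their calls were lower, however, and 1.13% of all tested models were lower. BTB and kelch repeat models changed at 1.08%. Of 230 tested heat shock proteins and chaperones, which help proteins fold, 2.17% changed, and 5 fell and 0 rose by edgeR (12 higher at an unadjusted p under 0.05, 1 by DESeq2, 0 by limma-voom), and the median log2 fold change was -0.06. Model Gloin1_345252, assigned to the HSP70 family although its domain annotation names an inorganic pyrophosphatase, had 33.6 and 33.3 CPM with GR24, against 56.6, 49.5 and 52.3 CPM with acetone (-0.66 ± 0.119). HSP70 models Gloin1_150300 and Gloin1_6803 changed by -0.63 ± 0.115 and -0.49 ± 0.097. Of 442 tested Sel1-repeat models 2.04% changed, and 9 fell by edgeR (7 by DESeq2, 4 by limma-voom) and 0 rose by any of these (9 higher at an unadjusted p under 0.05). Their median log2 fold change was -0.23, against -0.00050 over all tested models, and 112 of the 442 were above 0. Model Gloin1_335527 of this list was at 15.9 and 14.2 CPM with GR24, against 25.6, 25.2 and 30.0 CPM with acetone (-0.84 ± 0.161). Without GR24 replicate 3 no chaperone and no Sel1 model passed by edgeR, and without acetone replicate 3 there were 0 and 2; Gloin1_345252 was then at -0.65 and -0.66, Gloin1_150300 at -0.58 and -0.59, Gloin1_6803 at -0.38 and -0.45, and Gloin1_335527 at -0.76 and -0.76.

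The respiratory chain genes that fungi encode in mitochondrial DNA moved in 1 direction. By edgeR 42.9% of the tested models of this list changed, against 2.15% of all tested models. Several of its models share a description (NADH dehydrogenase subunits 1 and 5, cytochrome c oxidase subunit I). They need not be separate genes, so the counts below are of models. Of its 18 models 14 could be tested, all 14 had a positive log2 fold change (median 1.80), 6 rose by edgeR (7 by DESeq2, 8 by limma-voom) and 0 fell by any of these, and an unadjusted p under 0.05 was reached by 14. NADH dehydrogenase subunit 5 (Gloin1_334389), part of complex I, had 21.2 and 21.8 CPM with GR24, against 7.53, 4.78 and 6.23 CPM with acetone (log2 fold change 1.83 ± 0.199, adjusted p = 6.25e-05). Apocytochrome b (Gloin1_38829), the core of complex III, was at 26.4 and 30.0 CPM with GR24, against 8.94, 6.02 and 10.0 CPM with acetone (1.78 ± 0.197, adjusted p = 8.07e-05). Both were stable and their groups did not overlap. ATP synthase subunit 6 (Gloin1_1087) was at 14.5 and 15.6 CPM with GR24, against 4.86, 1.82 and 4.41 CPM with acetone (2.08 ± 0.295), and NADH dehydrogenase subunit 2 (Gloin1_329103) changed by 1.89 ± 0.249. These 2 did not pass without GR24 replicate 3 (2.01 and 1.62). A further NADH dehydrogenase subunit 5 model (Gloin1_64223) and cytochrome c oxidase subunit I (Gloin1_337841) rose by 1.77 ± 0.305 and 1.58 ± 0.348 and passed in 3 and 2 of the 5 fits. Without GR24 replicate 3 the list held 3 higher members, without acetone replicate 3 it held 4, and without acetone replicate 1 or 2 it held 13 and 9.

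Summed over the list, these models took 0.0181 ± 0.000127% of gene reads with GR24 (SD, n = 2) and 0.00541 ± 0.00218% with acetone (SD, n = 3). The acetone libraries held 0.00752%, 0.00317% and 0.00555%, below both GR24 libraries. An exact 2-sided permutation test over the 5 libraries gave p = 0.1, the smallest that these group sizes allow. The libraries were made from mRNA isolated with poly-T beads, and how much mitochondrial RNA such a selection keeps was not measured. The same share moved between libraries at other times. At 1 h it was 0.00115%, 0.00549% and 0.00159% with GR24, against 0.00257% and 0.00449% with acetone, and at 7 d 0.0205% and 0.0135% with GR24, against 0.0223% and 0.0149% with acetone. The groups overlapped at both of these times. At 14 d it was 0.00664%, 0.00510% and 0.00579% with GR24, against 0.00466%, 0.00507% and 0.00363% with acetone, where all GR24 libraries lay above all acetone libraries, by much less than at 2 d. The truncated mitochondrial DNA polymerase models Gloin1_54363 and Gloin1_83589 and the model Gloin1_83591, described as a mitochondrial hypothetical protein with an excinuclease-type domain, moved the same way (2.89 ± 0.509, 2.39 ± 0.504 and 2.31 ± 0.376). None of these passed without GR24 replicate 3 (2.65, 1.89 and 2.26), nor did Gloin1_54363 and Gloin1_83589 without acetone replicate 3 (3.02 and 2.20).

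A second quantity ran in parallel with the mitochondrial share. Reads matching several models made up 0.806% and 0.789% of gene reads with GR24, against 0.437%, 0.292% and 0.393% with acetone, so the groups did not overlap (exact 2-sided permutation p = 0.1, again the smallest possible). They were concentrated in 2 models of equal length, Gloin1_336851 and Gloin1_247407, described only by similarity to a hypothetical protein of Dictyostelium, none of whose reads was unique. Model Gloin1_336851 had 3561 and 3622 CPM with GR24, against 1698, 944 and 1425 CPM with acetone. Its log2 fold change of 1.41 ± 0.269 did not pass by edgeR (adjusted p = 0.120) but did by DESeq2 (0.000676) and limma-voom (0.000628). Without this pair the share was 0.0975 ± 0.00380% with GR24 (n = 2) and 0.0986 ± 0.00536% with acetone (n = 3). The part of this pair and of RNA selection in the mitochondrial result was not tested.

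**Figure D4:**
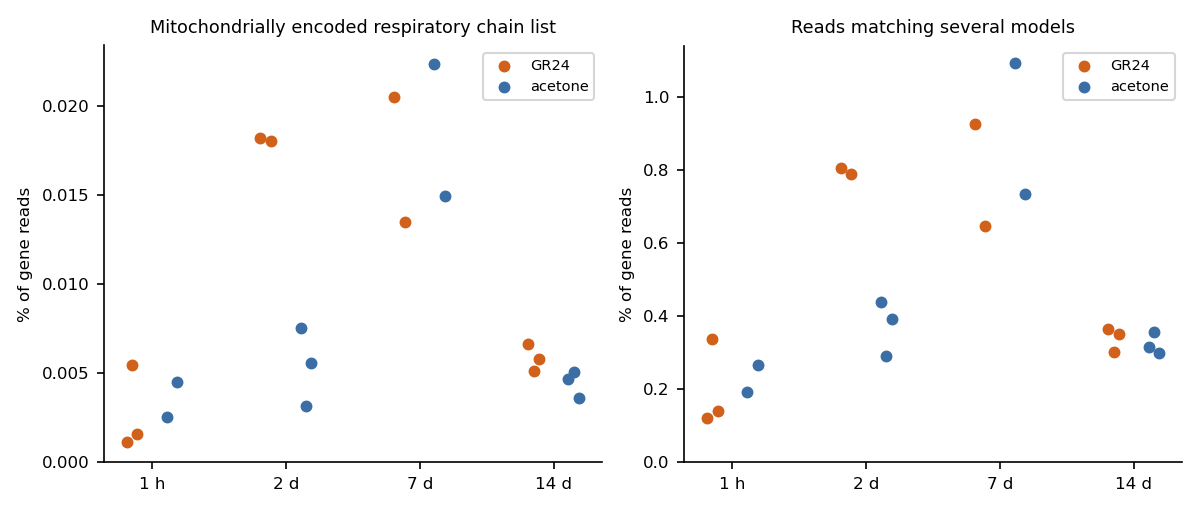
Points are libraries, with GR24 on the left and acetone on the right at each time (x axis); the y axis is the percent of gene reads in the mitochondrially encoded respiratory chain list (left panel) and the percent of gene reads that match several models (right panel). At 2 d the 2 GR24 libraries lie above the 3 acetone libraries in both panels (0.806% and 0.789% against at most 0.437% in the right one), and at 7 d the groups overlap in both.

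Nuclear genes of energy metabolism gave few calls, as did all tested models, of which 2.15% changed. The changed share was 2.17% for the nuclear-encoded respiratory chain and ATP synthase, 7.14% for glycolysis and 3.70% for beta-oxidation and peroxisome. It was 0% for the TCA and glyoxylate cycle and for sterol and fatty acid synthesis. Of 46 tested nuclear-encoded respiratory chain and ATP synthase models 1 rose and 0 fell by edgeR, DESeq2 and limma-voom, with a median log2 fold change of 0.08; 13 were higher and 3 lower at an unadjusted p under 0.05, where 7.58% and 8.83% of all tested models were. The rise was cytochrome c (Gloin1_342524), the electron carrier between complexes III and IV, with 227 and 250 CPM in the GR24 libraries, against 184, 184 and 191 CPM in the acetone libraries (0.36 ± 0.076). That call ended without GR24 replicate 3 (0.28) or acetone replicate 3 (0.38). In the TCA and glyoxylate cycle 0 of 28 models changed by edgeR, DESeq2 or limma-voom (11 higher and 0 lower at an unadjusted p under 0.05, median 0.11). The fit of all 20 time-course libraries had 7 higher and 1 lower nuclear respiratory model and 3 higher cycle models. One of 14 glycolysis models, phosphoglycerate mutase Gloin1_344476, rose by 0.42 ± 0.081 but did not pass without GR24 replicate 3 (0.37) or acetone replicate 3 (0.39). Of 54 beta-oxidation and peroxisome models 1 rose and 1 fell. In sterol and fatty acid synthesis 0 of 29 changed by edgeR, DESeq2 or limma-voom (5 higher and 1 lower at an unadjusted p under 0.05).

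Nutrient genes were few. Of 9 tested nitrate assimilation and ammonium transport models 2 rose (22.2% changed, against 2.15% of all tested models). They were the nitrate transporter type model Gloin1_30566 and the nitrite reductase type model Gloin1_3357. Levels of Gloin1_30566 were 29.0 and 35.2 CPM with GR24, against 16.3, 19.5 and 20.5 CPM with acetone (log2 fold change 0.77 ± 0.155). For Gloin1_3357 they were 64.8 and 72.9 CPM with GR24, against 51.4, 46.2 and 49.7 CPM with acetone (0.49 ± 0.107). The groups did not overlap, but neither passed in the fit lacking GR24 replicate 3 (0.61 and 0.40) or in that lacking acetone replicate 3 (0.84 and 0.50). Of 6 phosphate transporters 0 changed by edgeR, DESeq2 or limma-voom (3 higher at an unadjusted p under 0.05). Of 72 amino acid metabolism models 0 changed by edgeR (12 higher and 6 lower at an unadjusted p under 0.05), 3 rose by DESeq2 and 1 by limma-voom.

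Counts for growth and division genes depended on the fit. Of 21 tested histones 0 changed by edgeR, DESeq2 or limma-voom, although 8 were higher and 0 lower at an unadjusted p under 0.05 (median log2 fold change 0.26). By edgeR 6 were higher with no filter on low counts, 3 in the fit of all 20 time-course libraries, 2 without GR24 replicate 1 and 3 without acetone replicate 2. Of 112 replication and repair models 0 rose and 1 fell by edgeR (16 higher and 7 lower at an unadjusted p under 0.05; 1 rose by DESeq2 and 0 by limma-voom), and of 80 mitosis and cyclin models 1 rose. Without acetone replicate 2 these lists held 6 and 7 higher members. Of 65 cytosolic ribosomal proteins 3 rose (13 in the fit of all 20 time-course libraries), with 19 higher and 0 lower at an unadjusted p under 0.05. By edgeR 4.62% of them changed, against 2.15% of all tested models. One of the 3 was Gloin1_22168, whose domain annotation names ubiquitin only. Of 119 translation factors and tRNA synthetases 4 fell (3.36% changed). RNA silencing had 3 rises among 56 models (5.36% changed). They were the RNA-dependent RNA polymerases Gloin1_9546 (0.53 ± 0.128) and Gloin1_7208 (0.49 ± 0.113) and the Argonaute-type model Gloin1_35885 (0.36 ± 0.084), which together make and load small RNAs. Without GR24 replicate 3 and without acetone replicate 3 alike, none of the silencing models passed (Gloin1_35885 at 0.25 and 0.35, Gloin1_9546 at 0.33 and 0.51, Gloin1_7208 at 0.49 and 0.48). Model Gloin1_7208 also did not pass without GR24 replicate 1 (0.48) or acetone replicate 1 (0.45).

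The 2 d response was then set beside the other times, each of which was tested on its own libraries, so that no library is shared. At 1 h 10.4% of tested models changed (7.05% higher, 3.39% lower), at 7 d 6.43% (4.31% and 2.12%) and at 14 d 3.25% (1.29% and 1.95%). These times had 5, 4 and 6 libraries, against 5 at 2 d, so the shares are not directly comparable between times. Of the 150 models higher at 2 d, 55 (36.7%) were also higher at 1 h, where they were 5.58% of the rises, 52 (34.7%) at 7 d (8.46%) and 38 (25.3%) at 14 d (20.9%). Of the 166 lower models 10 (6.02%) were lower and 17 higher at 1 h, 38 (22.9%) were lower at 7 d and 11 (6.63%) at 14 d. No call in the same direction at any other time was made for 63 of the higher and 122 of the lower models. Models called in the opposite direction at another time are not set apart in these 2 counts. These counts do not show that the effects differ, which the differences below test.

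Of the 150 higher models 15 were higher at all 4 times. They are the chitin synthase Gloin1_67965, the methyltransferases Gloin1_25998 and Gloin1_79000, the P450 models Gloin1_345274, Gloin1_345126 and Gloin1_54640, the hydrolase Gloin1_346819, the E3 ligase type model Gloin1_350230, the multidrug exporter Gloin1_6100, the antiporter Gloin1_349622, the UDP-glycosyltransferase Gloin1_337251 and 4 models without a description (Gloin1_349160, Gloin1_346546, Gloin1_96153 and Gloin1_209450). Of the 166 lower models 1, the undescribed Gloin1_22280, was lower at all 4. P450 model Gloin1_347608 had log2 fold changes of 2.83, 2.58, 2.75 and 1.46 at 1 h, 2 d, 7 d and 14 d, while its mean level with GR24 was 7941, 735, 348 and 309 CPM, against 1119, 122, 51.6 and 111 CPM with acetone. Both groups' levels were highest at 1 h. At 14 d it did not pass (adjusted p = 0.19). For the methyltransferase Gloin1_20845 the log2 fold changes at these times were 5.51, 3.52, 2.25 and 1.18, the last without a call (adjusted p = 0.45), and the difference between 2 d and 1 h did not pass (-1.97 ± 0.697, adjusted p = 0.115). The undescribed model Gloin1_95868 had 0.29, 3.79, 4.34 and 3.57, with no call at 1 h and a difference of 3.51 ± 0.324 between 2 d and 1 h (adjusted p = 5.35e-07).

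**Figure D5:**
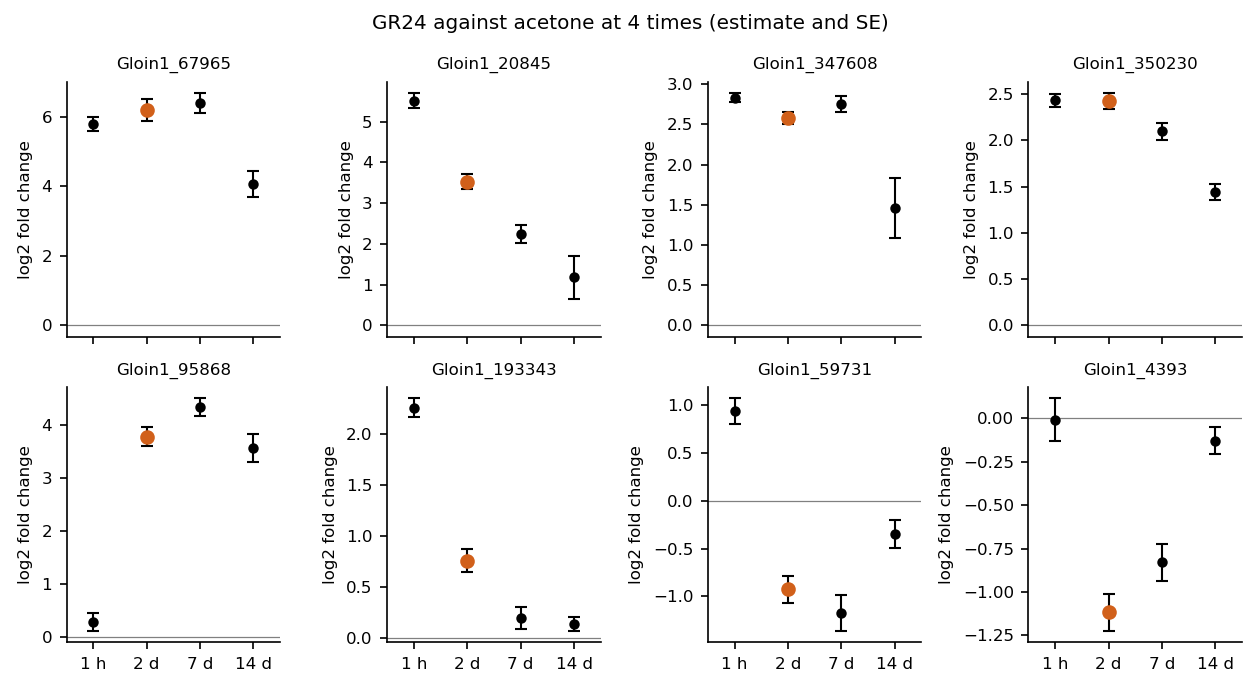
Each panel gives 1 gene model, with the log2 fold change of GR24 against acetone (y axis) at 1 h, 2 d, 7 d and 14 d (x axis), points for the estimate, bars for its SE and the 2 d point in orange; y axes differ between panels. Model Gloin1_67965 stays above 4 at each time, the estimates of Gloin1_20845 and Gloin1_193343 are highest at 1 h, that of Gloin1_95868 is near 0 at 1 h only, and Gloin1_59731 is above 0 at 1 h (0.94) and below it at 2 d (-0.93).

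The effect at 2 d minus the effect at another time was tested in 1 fit of the 20 time-course libraries. Against 1 h it differed in 1234 of 15712 models (7.85%; 3.32% above, 4.53% below), against 7 d in 113 (0.719%; 0.274% above, 0.446% below) and against 14 d in 130 (0.827%; 0.439% above, 0.388% below). Among the models higher at 2 d, the 2 d effect was above that at 1 h in 47 and below it in 17, and among the models lower at 2 d it was below in 99 and above in 0. Against 7 d 19 of the higher models were above and 11 of the lower models below, and against 14 d the counts were 29 and 26. Since these models were picked by their 2 d effect, the direction of most of these differences follows from the choice. The 17 that were smaller at 2 d than at 1 h go against it. These counts rested on single libraries too. Leaving out GR24 replicate 3 gave 648 against 1 h, 0 against 7 d by edgeR (1216 had an unadjusted p under 0.05) and 29 against 14 d. Leaving out GR24 replicate 1 gave 281 against 7 d and 206 against 14 d. The count against 7 d was 364, 23 and 63 when acetone replicate 1, 2 or 3 was left out.

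Several transport and P450 models had effects at 2 d that lay below those at 1 h. The facilitator Gloin1_193343 had a log2 fold change of 0.76 ± 0.113 at 2 d and 2.26 ± 0.090 at 1 h, a difference of -1.49 ± 0.139 (adjusted p = 1.38e-08). For the UDP-glycosyltransferase Gloin1_6264 the values were 0.71 ± 0.111 and 2.42 ± 0.145, with a difference of -1.70 ± 0.164. The lower P450 model Gloin1_4393 had -1.12 ± 0.105 at 2 d and -0.01 ± 0.121 at 1 h, a difference of -1.10 ± 0.171 (adjusted p = 9.47e-05). P450 model Gloin1_19698 had 0.56 ± 0.133 at 2 d and 2.26 ± 0.087 at 1 h. P450 model Gloin1_59731 was lower at 2 d (-0.93 ± 0.140) and higher at 1 h (0.94 ± 0.131), a difference of -1.85 ± 0.198 (adjusted p = 9.21e-08). Over all models 4.53% were below and 3.32% above. In the P450 list the 2 d effect was below the 1 h effect in 36 of 143 models and above it in 3. In the ABC list it was below in 10 of 53 and above in 0 by edgeR, and in the facilitator list of 67 it was below in 11 and above in 3.

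In the authors' deposited table for 2 d, which uses Baggerley's test on weighted proportions, 166 models had a corrected p under 0.05, 51 with a positive fold, 114 with a negative fold and 1 with none. Of the 316 models called by edgeR 108 (34.2%) were among them, which is 65.1% of the authors' calls, and 107 of these 108 had the same sign. Of the 36 stable models 29 were in both. The authors' deposited table gives a fold of 65.1 for Gloin1_67965, 11.0 for Gloin1_20845 and -3.37 for Gloin1_35042.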

How the data were processed

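Poly-T-selected mRNA was sequenced by the authors from germinating spores. Per the file headers, the deposited total gene reads are read counts per gene model that include reads matching several models, the unique gene reads are counts of reads matching 1 model, and the RPKM values were made by the authors from total gene reads. Also per the file headers, the authors' table gives a signed fold of weighted proportions (a score) and Baggerley's p-value after false discovery rate correction. Aligner, version and use of strand: not given in the sources used here, so overlapping genes on opposite strands cannot be told apart. The depth of 6359363 to 10816288 gene reads limits models with few reads.

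The quasi-likelihood test (2-sided) of edgeR 4.0.16, R 4.3.3, was run on total gene reads after filterByExpr by group and TMM scaling, with a robust fit and Benjamini-Hochberg adjustment at 0.05. Differences between times were contrasts in 1 such fit of 20 libraries. Single shares were compared by an exact permutation test. DESeq2 1.42.0, limma-voom 3.58.1 and the other settings were alternatives. The floor of 3 reads covers counting error in the acetone reads only. On simulated counts for the 2 d comparison (14630 models), 59.7% of models changed 1.5-fold, 86.6% of those changed 2-fold and 98.5% of those changed 4-fold were recovered, and 4.68% of calls were unchanged models. The simulation gave every model the same spread and all libraries the same profile apart from the placed changes. Changes were placed only in models above a minimum mean read count. These shares are therefore not error rates of the real comparison, where calls rested on single libraries.

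No library was a duplicate of another in its group. The 41 gene lists were made from keywords in the descriptions, so a model can be in several. The members and lists were chosen with earlier results of these data known. Models were named by rank of fold change and p among the 2 d calls, among the stable calls, per list and per difference between times; further stable models and list members were named after their values were seen. No protein ID matched the reference gene table, so no coordinates or sequences are given.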

Additional observations from a re-analysis of the deposited data

Results flagged for a closer look

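For 24 results the GR24 effect at 2 d differed from the effect at another time by a test of that difference (edgeR contrast over the 20 time-course libraries, adjusted over all models). No explanation was tested.

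Against 1 h the 2 d effect was smaller or of opposite sign, on the log2 scale, for the P450 models Gloin1_59731 (-1.85) and Gloin1_19698 (-1.68), the facilitator Gloin1_193343 (-1.49) and the UDP-glycosyltransferase Gloin1_6264 (-1.70). It was larger for the transcription factor Gloin1_216571 (0.91), the RING-type model Gloin1_346472 (0.80), the Argonaute-type model Gloin1_35885 (0.67) and the La-domain RNA-binding model Gloin1_26784 (0.59). Models Gloin1_216571 and Gloin1_35885 were higher at 2 d (0.46 and 0.36) and lower at 1 h (-0.44 and -0.29).

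Against 7 d the 2 d effect was larger for the glucosamine-phosphate N-acetyltransferase Gloin1_27492 (1.23), P450 Gloin1_19698 (0.87), the membrane-associated eicosanoid and glutathione metabolism model Gloin1_338666 (0.69) and Gloin1_26784 (0.62). It was lower for the DnaJ chaperone Gloin1_52346 (-1.17), the Runt-type model Gloin1_17834 (-0.93), the F-box model Gloin1_28505 (-0.87) and the coactivator Gloin1_98847 (-0.62). Without GR24 replicate 3, 0 models differed between 2 d and 7 d by edgeR (1216 at an unadjusted p under 0.05).

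Against 14 d it was larger for the nitrate transporter type model Gloin1_30566 (1.23), the E3 ligase type model Gloin1_350230 (0.99), Gloin1_338666 (0.77) and the methyltransferase Gloin1_289675 (0.64). It was lower for the NAD-dependent oxidoreductase Gloin1_340039 (-1.86), P450 Gloin1_4393 (-0.99), the cation channel Gloin1_288412 (-0.96) and the Snf5-type chromatin model Gloin1_24382 (-0.77). Model Gloin1_340039 was lower at 2 d (-0.72) and higher at 14 d (1.14), and Gloin1_288412 was lower at 2 d (-0.52) and higher at 14 d (0.45).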

How the results depend on the processing

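Naming by rank, list and difference between times picked 121 models past the test at 2 d. Of these, 26 passed in all 5 fits with a library left out, and 0 reversed under any alternative tried. Further stable models named after their values were seen are not in this count. For GR24 versus acetone at 2 d, the count of 316 ranged from 46 to 457 with 1 library left out (at least 2-fold: 87, range 29 to 139). With no filter on low counts it was 831 (at least 2-fold 163), and in the fit of all 20 time-course libraries 748 (133). Size factors of the DESeq2 type, library totals, DESeq2, limma-voom and unique reads gave 313, 316, 303, 268 and 311. Differences from 1 h (1234) ranged from 648 to 1347 with a 2 d library left out, from 7 d (113) from 0 to 364 and from 14 d (130) from 29 to 206; with no filter the last 2 were 593 and 507. The share of reads matching several models differed by 0.424 percentage points, and by -0.00102 without its 2 leading models. Of 166 calls in the authors' deposited table, those of at least 2-fold numbered 47. The cause was not tested.

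Deviations of equally numbered 2 d libraries from their group means correlated at -0.131 and 0.0202 across genes. The deviations of 2 GR24 libraries mirror each other, so these values cannot show or exclude pairing by replicate number. With the replicate block 504 models passed (270 of the 316 among them), with 7 histones, 13 replication and repair and 6 mitosis models higher, and the differences numbered 1212, 40 and 166 for 1 h, 7 d and 14 d. Acetone replicate 2 has no equally numbered GR24 library here. In the 2 d fit with the block it therefore adds nothing to the GR24 effect, much as if it were left out. Depth limits models with few reads, such as Gloin1_7338.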
